A study of Mus musculus with 9 samples.

Results

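The phagocyte NADPH oxidase genes are described here in cultured mouse bone marrow cells. They were taken from the count table by gene symbol and comprise Cybb, Cyba, Ncf1, Ncf4 and Rac2, 5 of the 24421 symbols listed, and all 5 passed the filter on low counts among 13270 genes tested. Bulk RNA sequencing was done on cells depleted of lineage-positive cells and grown for 5 days in IL-3, IL-6 and SCF, in 3 groups of 3 libraries on a C57BL/6 background. Wild-type (WT) cells received vehicle. Tet2-/-Flt3ITD cells, called mutant below, lack the DNA demethylase gene Tet2 and carry an internal tandem duplication in the receptor gene Flt3, and they received vehicle or SHP099, an allosteric inhibitor of the tyrosine phosphatase SHP2, with a treatment time of 24 h. The labels name neither the vehicle nor the dose, and they do not say how the Tet2 allele was deleted. Each mutant culture came from an individual mouse, and vehicle and SHP099 libraries of the same replicate number are pairs. For WT cells no individual mice are named, and no WT cells received SHP099.

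The phagocyte oxidase moves electrons from NADPH across a membrane to oxygen and so makes superoxide, which neutrophils and macrophages use to kill microbes. Cybb encodes the catalytic subunit gp91phox (NOX2) and Cyba its membrane partner p22phox, and the pair forms the flavocytochrome in the membrane. Ncf1 (p47phox) and Ncf4 (p40phox) encode cytosolic subunits that move to the membrane on activation, and Rac2 encodes the blood-cell GTPase that has to be bound to GTP for the enzyme to work. Loss of Cybb, Cyba, Ncf1 or Ncf4 causes forms of chronic granulomatous disease. Myeloid cells switch these genes on as they mature, and the gene of the transcription factor PU.1 (Spi1) is among their known activators.

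The 5 genes lie on 4 chromosomes of the GRCm38 assembly, and only Ncf4 and Rac2 share one. Cybb lies on chromosome X, 9435252 to 9487771, and Cyba on chromosome 8, 122424776 to 122432930. Ncf1 lies on chromosome 5, 134220053 to 134229625, and Ncf4 on chromosome 15, 78244801 to 78262580. Rac2 is also on chromosome 15, 78559167 to 78572783. All but Ncf4 are on the minus strand. RefSeq promoter sequence (GRCm38.p6) was at hand for Cybb, Cyba and Ncf1. For these 3 genes the 250 bases upstream of each start are shown. The choice followed the sequence at hand, since all 5 genes rose with SHP099 in the paired comparison below. Capitals mark matches on either strand. The letters searched for were GAGGAA for a PU.1 site, CCAAT for a CCAAT box and GGGCGG for a GC box. Those of AP-1 were TGANTCA, those of C/EBP factors were TTGCNNAA, and a TATA box was searched as TATAAA.
Cybb, chrX:9469325-9469574, minus strand: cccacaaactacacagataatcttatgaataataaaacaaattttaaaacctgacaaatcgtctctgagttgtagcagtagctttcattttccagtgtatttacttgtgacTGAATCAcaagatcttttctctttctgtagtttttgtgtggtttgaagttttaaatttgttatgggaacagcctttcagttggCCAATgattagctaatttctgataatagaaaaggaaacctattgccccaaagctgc
Cyba, chr8:122432941-122433190, minus strand: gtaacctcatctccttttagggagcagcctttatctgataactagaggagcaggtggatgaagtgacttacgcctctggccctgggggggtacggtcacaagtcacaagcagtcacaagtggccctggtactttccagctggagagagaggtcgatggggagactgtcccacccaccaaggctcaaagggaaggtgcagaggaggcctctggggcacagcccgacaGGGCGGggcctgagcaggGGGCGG
Ncf1, chr5:134229626-134229875, minus strand: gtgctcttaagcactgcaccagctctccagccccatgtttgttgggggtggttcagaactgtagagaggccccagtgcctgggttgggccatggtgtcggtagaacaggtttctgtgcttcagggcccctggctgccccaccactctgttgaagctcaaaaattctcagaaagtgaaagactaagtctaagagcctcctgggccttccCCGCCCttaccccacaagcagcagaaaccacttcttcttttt

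No searched motif was in all 3 stretches. Cybb held a CCAAT box, 56 to 52 bases before the start, and an AP-1 match, 139 to 133 bases before it. Of 32851 promoter stretches of this length, 33.8% held CCAAT and 6.75% held the AP-1 letters. Cyba held GGGCGG at 24 to 19 and at 6 to 1 bases before the start, and Ncf1 held its reverse complement at 42 to 37 bases before the start, a motif found in 32.7% of all stretches. The PU.1, C/EBP and TATA letters, found in 23.3%, 9.56% and 12.4% of stretches, were in none of the 3. Only these exact letters were searched, so a missing match does not show that a factor has no site there. Shorter or variant forms of a site, such as GGAA without the letters before it, were not marked. No match overlapped another. The RefSeq start of Cybb lies inside the gene span of the GENCODE annotation.

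All 5 oxidase transcripts were abundant in WT cultures, and their order was read per transcript length. In CPM (counts scaled to the TMM-corrected size of each library) divided by the length of the longest coding transcript in kb, Cyba stood highest at 541 ± 34.4 CPM per kb (SD, n = 3). Rac2 followed at 317 ± 24.8 CPM per kb and Ncf1 at 303 ± 37.2 CPM per kb. The ranges of Rac2 and Ncf1 overlapped (298 to 345 and 267 to 341 CPM per kb), so this order is not beyond their spread. Ncf4 came next at 208 ± 29.1 CPM per kb, below every Ncf1 library of the WT group. Cybb was at 105 ± 25.3 CPM per kb, and every WT library of Cybb lay below every WT library of Ncf4. The deposited table does not show which transcripts were used, and Cybb has the longest of the 5, at 4752 nucleotides against 744 for Cyba. The order was the same by group mean with SHP099 and in mutant vehicle cells, but in each of these groups the single high Ncf4 library (255 and 287 CPM per kb) lay inside the Ncf1 range.

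**Figure D1:**
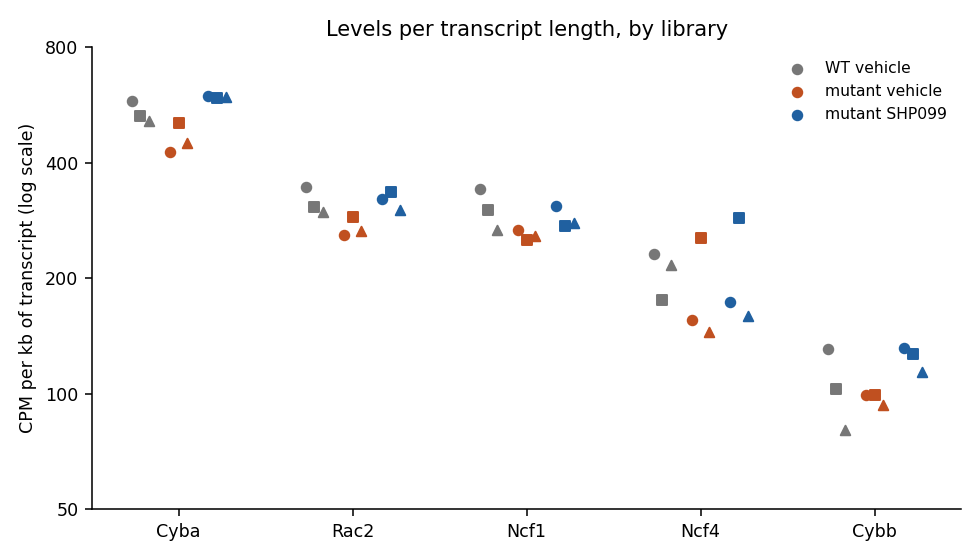
Level of each oxidase gene per kb of its longest coding transcript (CPM per kb, log axis) in each of the 9 libraries, coloured by group, with circles, squares and triangles for replicates 1, 2 and 3. Cyba sits highest in every library and Cybb lowest, and the squares of Ncf4 stand above its other mutant libraries.

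The libraries held 27242168 to 45810089 counts, so each of the 5 genes was covered by at least 7130 counts in every library. SHP099 replicate 3 stands apart through the ribosomal RNA precursor Rn45s, at 4.33% of its counts against 0.276% to 0.734% elsewhere. The Rn45s share also differed by group. It was 0.705%, 0.465% and 0.377% for WT, but only 0.357%, 0.288% and 0.276% under mutant vehicle. Treated cultures 1 and 2 stood at 0.734% and 0.658%. Every mutant vehicle share thus lay below all shares of both other groups, as did the levels of Cyba and Rac2. Whether this difference bears on the oxidase levels was not tested. Counts of edgeR calls per gene list with SHP099 that change without SHP099 replicate 3 are given both ways. Cybb is X-linked. Xist was at most 0.108 CPM and the Y-linked gene Ddx3y at 34.1 to 53.3 CPM in all 9 libraries, so the groups did not differ in that respect. Myeloid markers were high, with the primary granule gene Mpo at a mean of 7438 CPM in WT cells. Lymphoid markers were uneven. Cd3e was at most at 0.00801 CPM in the mean of any group, but the 9 listed summed to 112.5 to 186.5 CPM per library. Nkg7, given below, was far above Cd3e.

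Mutant and WT cells were first compared under vehicle, the state on which the inhibitor acts. The oxidase transcripts were slightly lower in mutant cells. Cyba and Rac2 fell, and Ncf1, Cybb and Ncf4 did not pass the test. The fitted differences of Cyba, Ncf1 and Rac2 were alike, near 0.855 of the WT level, and those of Cybb and Ncf4 came with wide intervals.

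Cyba, the p22phox gene, stood at 431, 394 and 383 CPM in the WT libraries and at 318, 379 and 335 CPM in the mutant vehicle libraries. The highest mutant library lay just under the lowest WT library, so the groups did not overlap. The log2 fold change was -0.23 ± 0.07 (SE, edgeR quasi-likelihood test over all genes, adjusted p = 0.027). Rac2 was at 1048.5, 935 and 906 CPM in WT and at 788, 876 and 807 CPM in mutant vehicle cells, again without overlap. Its log2 fold change was -0.23 ± 0.07 (edgeR adjusted p = 0.0315).

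Ncf1, the p47phox gene, was at 983, 868 and 769 CPM in WT and at 768, 727 and 745 CPM in mutant vehicle cells. The groups were separated by less than 1 CPM, and the log2 fold change of -0.23 ± 0.08 did not pass (edgeR adjusted p = 0.0633). It passed with the size factors of DESeq2 in edgeR and in DESeq2 itself, and adjusted p values ran from 0.0108 to 0.199 over the alternatives. Part of the Ncf1 gene, 408 exonic bases, is shared with Gtf2ird2 on the opposite strand. Whether the counting used strand is not given in the sources used here, and Gtf2ird2 itself was far lower, at 34.5 ± 2.04 CPM in WT cells.

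Cybb, the catalytic subunit gene, varied most within WT, at 622, 488 and 382 CPM, while mutant vehicle libraries were close together at 471, 471 and 445 CPM. All 3 mutant libraries lay inside the WT range. The log2 fold change was -0.11 ± 0.14 (95% interval -0.42 to 0.21, edgeR adjusted p = 0.60), and without WT replicate 1 it turned to 0.09. Ncf4 was at 339, 256 and 317 CPM in WT and at 228, 373 and 212 CPM in mutant vehicle cells, with a log2 fold change of -0.17 ± 0.25 (95% interval -0.73 to 0.40, adjusted p = 0.66).

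Thus 2 of the 5 genes were called lower and none higher, where 14.7% of all genes tested were called lower, and 3 of the 5 had groups that did not overlap, where 20.5% of all genes did so in that direction. The median log2 fold change of the 5 was -0.23, beside 0.02 over all genes. The calls of both Cyba and Rac2 were lost without WT replicate 1, without mutant vehicle replicate 1 or 3, and with the trend of transcript length and GC content removed. With that trend removed the log2 fold change of Cyba was -0.11 and that of Rac2 -0.19.

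**Figure D2:**
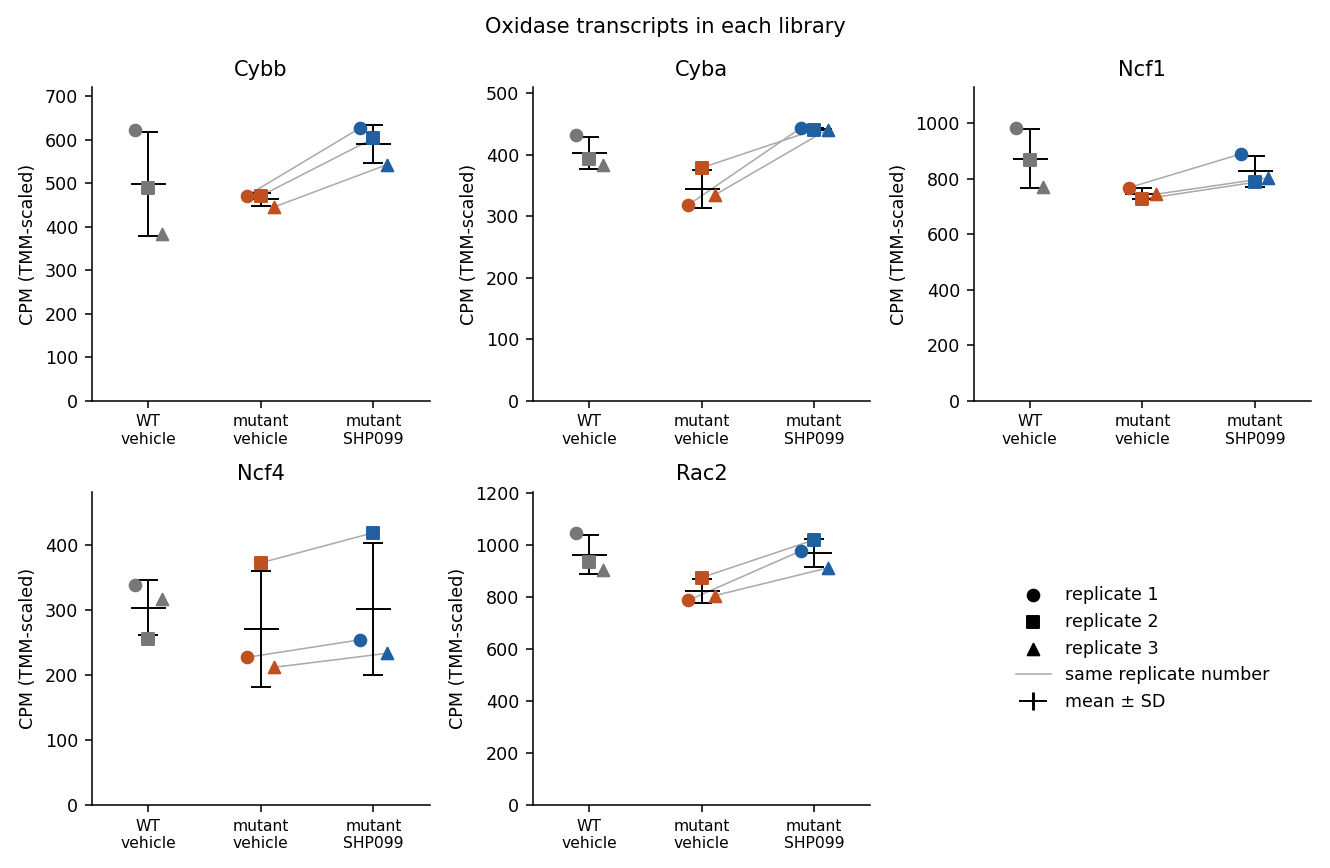
CPM on TMM-scaled library sizes of the 5 oxidase genes in each library, with circles, squares and triangles for replicates 1, 2 and 3, grey lines joining mutant libraries of the same replicate number, and black bars for the mean ± SD of 3 libraries. Every grey line rises from vehicle to SHP099, and Ncf4 is high in replicate 2 of both mutant groups.

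The effect of SHP2 inhibition was read in mutant cells as SHP099 against vehicle. All 5 oxidase transcripts were higher in the treated library of each of the 3 pairs, which 32.2% of all genes were. In the main fit the change was largest for Cybb and Cyba, near 1.28-fold, smaller for Rac2 and smallest for Ncf1 and Ncf4. This order depended on the length and GC trend. With it removed, Cybb changed by 0.41 ± 0.14 on the log2 scale, Cyba by 0.24 ± 0.07 and Rac2 by 0.21 ± 0.07. In the fit of all 9 libraries Cyba and Rac2 rose (2 of 5, where 8.81% of all genes were called higher). With the replicate number as a block in the 6 mutant libraries all 5 rose, where 21.5% of all genes were called higher.

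Cyba went to 443, 440.1 and 441 CPM with SHP099, a coefficient of variation of 0.375%, against 9.09% in the mutant vehicle libraries. The groups did not overlap, the log2 fold change was 0.36 ± 0.07 (edgeR adjusted p = 0.00499), and the fold was 1.28 (95% interval 1.16 to 1.42). Its transcript is short, and with the length and GC trend removed the change was 0.24 ± 0.07 (adjusted p = 0.0463) and, in the paired fit, 0.24 ± 0.03. With that trend removed and the block over all 9 libraries the Cyba call was lost (0.24 ± 0.07, edgeR adjusted p = 0.0583). Rac2 rose to 978, 1021 and 913 CPM, all above the vehicle libraries, by 0.24 ± 0.07 on the log2 scale (adjusted p = 0.0344). That call was lost when mutant vehicle replicate 1 or 3, or SHP099 replicate 1 or 2, was left out, and with the length and GC trend removed (edgeR adjusted p up to 0.107), and it held in the paired fit (adjusted p = 0.000108).

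Cybb was at 626, 603 and 542 CPM with SHP099, again above every vehicle library. The size of its change, 0.35 ± 0.14, was like that of Cyba, but in the fit of all libraries it did not pass (edgeR adjusted p = 0.102). That fit shares 1 estimate of the spread between groups, and WT libraries of Cybb had a coefficient of variation of 24.2% against 3.21% with mutant vehicle. With pairing the change was 0.35 ± 0.04 (edgeR adjusted p = 8.72e-08), and it also passed with the mutant groups alone and no block (adjusted p = 0.00745) and without WT replicate 1 or 3 (0.0227 and 0.0185). With the first pair left out, in a fit of fewer libraries, the paired change was smaller (0.32 ± 0.04) but its edgeR adjusted p was lower (3.86e-12). The paired fit borrows its spread across genes, so its p-values do not measure the spread between 3 mice alone. By pair the treated library was 1.33-fold, 1.28-fold and 1.22-fold above its vehicle partner.

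Ncf1 was at 891, 788 and 804 CPM with SHP099 and did not overlap the vehicle libraries. Its log2 fold change of 0.15 ± 0.08 did not pass without pairing (edgeR adjusted p = 0.233) and passed with it (0.15 ± 0.04, adjusted p = 0.00813). Gtf2ird2, with which it shares exonic bases, went the other way by -0.36 (adjusted p = 0.00476). Ncf4 was at 255, 419.6 and 234 CPM, and its groups overlapped widely. Each treated library was nevertheless above its partner by nearly the same factor, 1.12, 1.12 and 1.10. The log2 fold change was thus 0.16 ± 0.25 without pairing (adjusted p = 0.703) and 0.16 ± 0.04 with it (edgeR adjusted p = 0.00169).

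The paired count depended on a library and on the length correction. Without the third pair, the one with the high Rn45s share, 4 of the 5 passed and Ncf1 did not (0.16 log2 units, adjusted p = 0.0782). With the length and GC trend removed in the paired fit, 4 passed and Ncf4 did not (0.07 ± 0.03, adjusted p = 0.106). Without pairing the groups of 4 of the 5 genes did not overlap, a pattern found in that direction for 18.3% of all genes.

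**Figure D3:**
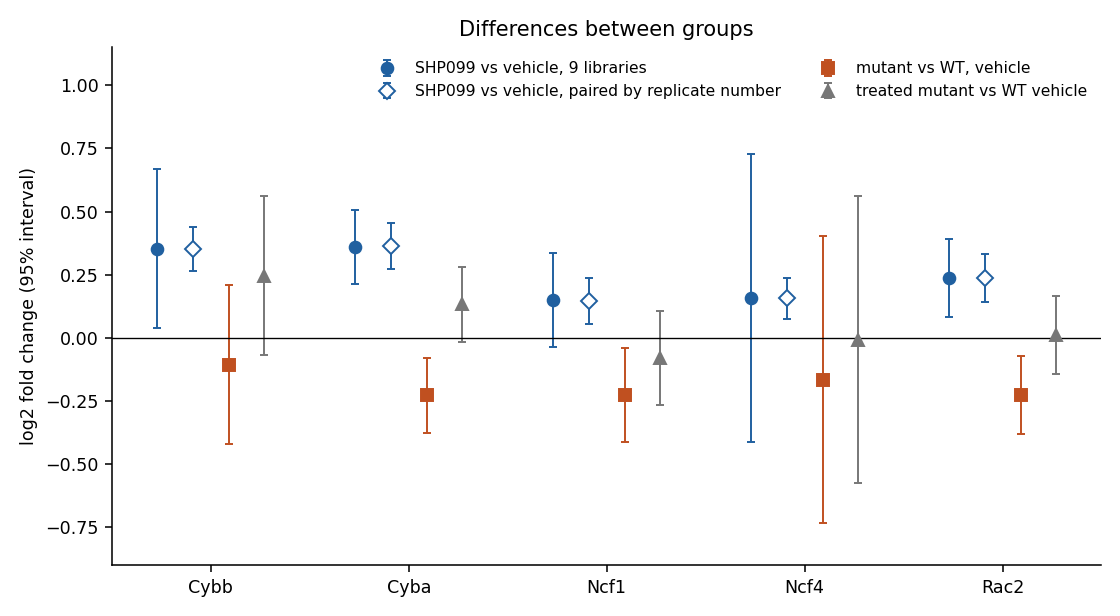
Log2 fold change of each oxidase gene with its 95% interval in the 3 comparisons of group means (filled symbols, 1 fit of 9 libraries) and for SHP099 against vehicle with the replicate number as a block in the 6 mutant libraries (open diamonds). Open diamonds lie above 0 for all 5 genes, from 0.15 for Ncf1 to 0.36 for Cyba, and their intervals are narrower than those of the filled circles, most of all for Ncf4.

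Set against WT vehicle cells, SHP099-treated mutant cells showed no called difference in any of the 5 genes. This comparison shares its libraries with the 2 above, so it adds no independent measurement. In edgeR 0 of 5 passed, and also 0 at an unadjusted p under 0.05 and 0 in DESeq2, where edgeR called 31.7% of all genes in either direction. The log2 fold changes were 0.25 ± 0.14 for Cybb, 0.13 ± 0.07 for Cyba, 0.01 ± 0.07 for Rac2, -0.01 ± 0.25 for Ncf4 and -0.08 ± 0.08 for Ncf1. Their 95% intervals on the log2 scale ran from -0.07 to 0.56 for Cybb, -0.01 to 0.28 for Cyba and -0.14 to 0.16 for Rac2. They ran from -0.58 to 0.56 for Ncf4 and from -0.26 to 0.11 for Ncf1. Cyba was the sole member whose treated libraries all lay above the WT libraries, where 24.4% of all genes were so. Without WT replicate 1 the difference of Cybb grew to 0.44 and passed (edgeR adjusted p = 0.014).

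Ncf4 differed more between mutant cultures than between treatments. Culture 2 held 373 CPM with vehicle and 419.6 CPM with SHP099, while cultures 1 and 3 held 228 and 212 CPM with vehicle and 255 and 234 CPM with SHP099. The level in culture 2 was 1.70 times the mean of the other two with vehicle and 1.72 times with SHP099. For Cybb, Cyba, Ncf1 and Rac2 the same ratio lay between 0.93 and 1.16. Among 9887 genes with a mean of at least 5 CPM, 13 (0.131%), Ncf4 included, had ratios at least as high in both treatments. This pattern was picked out after its values were seen and is given with no test.

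Of the 14 other such genes within 500 kb of Ncf4, Csf2rb2 and Csf2rb, the next of these on its 3′ side and the genes of beta chains of the IL-3 and GM-CSF receptors, were the sole ones with a ratio above 1.2 in both treatments. Csf2rb2 was at 1.28 with vehicle and 1.33 with SHP099, and Csf2rb at 1.23 and 1.22. Ift27, the next of these on its 5′ side, was at 0.717 and 0.598. Csf2rb and Csf2rb2 are close copies, so their split of counts is uncertain.

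**Figure D4:**
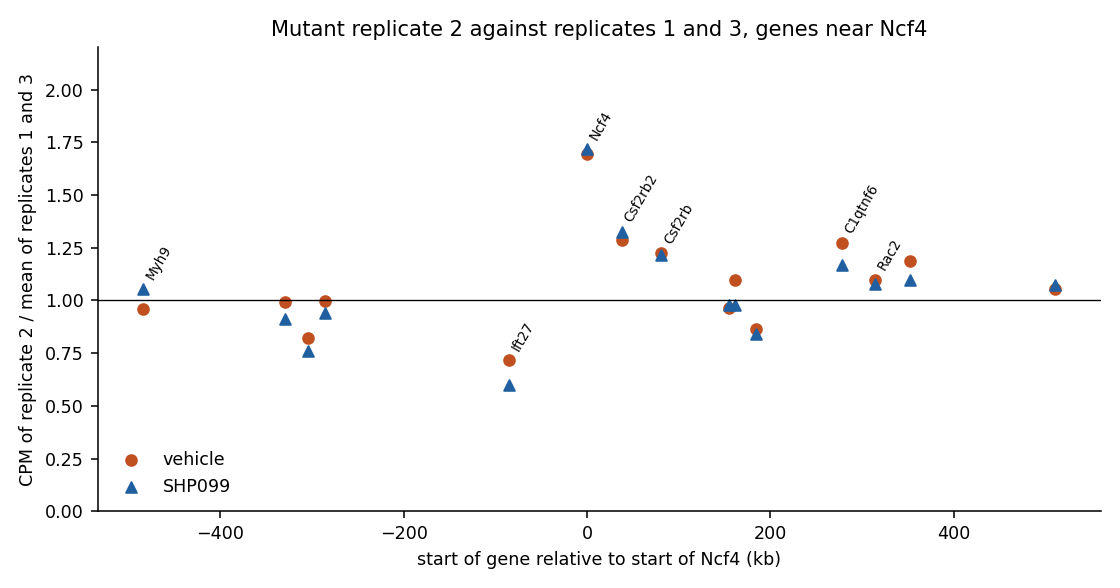
Ratio of the level in mutant replicate 2 to the mean of replicates 1 and 3, with vehicle (circles) and SHP099 (triangles), for Ncf4 and 14 genes that begin or end within 500 kb of it, against the distance of their starts from the start of Ncf4 in kb. Ncf4 stands at 1.70 and 1.72, Csf2rb2 and Csf2rb next to it at 1.22 to 1.33, and Rac2 at 1.10 and 1.08.

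The counts of the lists below are to be read against all genes tested. With SHP099 8.81% of these rose and 13% fell in the fit of all libraries, and 21.5% rose and 21.3% fell with pairing. In mutant against WT cells 16.9% rose and 14.7% fell. Without SHP099 replicate 3 the shares with SHP099 were 5.04% and 8.19%, and with pairing but without the third pair 14.4% and 14.9%.

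Oxidase partners and other NOX genes were read from a list of 13 genes, of which 12 were in the table and 4 passed the filter on low counts, and 1 of these 4 was called with SHP099, lower. That was Noxo1, an organizer of the NOX1 enzyme, which went from 2.04 ± 0.407 to 1.23 ± 0.111 CPM (log2 fold change -0.72 ± 0.18, edgeR adjusted p = 0.0196), a call that was lost without SHP099 replicate 3. With pairing 3 of the 4 rose and 1 fell (2 and 1 without the third pair). These included the proton channel gene Hvcn1 and Rap1a, the gene of a GTPase that copurifies with the flavocytochrome. They rose by 0.14 and 0.12 log2 units. Rap1a was lower in the treated library of the first pair (0.965-fold), and its paired edgeR adjusted p was 0.0357. In mutant against WT cells 0 of the 4 were called by edgeR or DESeq2, and Rap1a alone had an unadjusted p under 0.05 (-0.14 ± 0.06, adjusted p = 0.0988). The other catalytic genes were hardly detected. Nox3 and Duox1 had 0 counts in all libraries, which allows at most 0.11 CPM in the shallowest library for counting error alone. Nox4 and Duox2 had 1 count in 1 library each and Nox1 had 0 to 4 counts.

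Among 9 other small GTPases of the family that holds Rac2, Rac1, the close relative of Rac2 that can also activate the enzyme, went with Rac2. It was at 397 ± 7.26 CPM in WT, 361 ± 10.1 CPM in mutant vehicle and 407 ± 16.8 CPM in SHP099-treated cells. It fell in mutant cells by 0.14 ± 0.04 on the log2 scale (edgeR adjusted p = 0.0318) and rose with SHP099 by 0.17 ± 0.04 (adjusted p = 0.0164). Rhog also rose with SHP099 (0.18 ± 0.05), and the other 7 were not called, while with pairing 4 rose and none fell. Without SHP099 replicate 3 neither Rac1 nor Rhog was called, and with pairing but without the third pair 2 of the 9 rose and 1 fell. In mutant cells 4 of the 9 fell and none rose, the others being Rhob, Rhoh and Rhoc. Rac3 was at 0.63 to 0.917 CPM in the group means.

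Of 8 receptors that trigger the burst, 2 rose with SHP099, the complement C5a receptor gene C5ar1, from 17 ± 1.21 to 22.2 ± 1.65 CPM, and the beta 2 integrin gene Itgb2, from 414 ± 19.2 to 501 ± 25.7 CPM. With pairing all 8 rose. Without SHP099 replicate 3 C5ar1 alone was called, and 7 rose with pairing without the third pair. In mutant cells C5ar1 was 1.32 log2 units below its WT level of 42.3 ± 2.49 CPM (log2 fold change -1.32 ± 0.08, edgeR adjusted p = 2.92e-05), Itgb2 fell by 0.52 ± 0.09, and Fcgr1, the high-affinity IgG receptor gene, rose by 0.82 ± 0.21. The median log2 fold change of the list was 0.29 with SHP099 and -0.26 in mutant cells, beside 0.00361 and 0.02 over all genes.

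Of 21 kinases, exchange factors and RhoGDIs of oxidase activation, 2 rose and 1 fell with SHP099, and with pairing 6 rose and 4 fell. Arhgdib, whose product holds RAC2 in its inactive form in blood cells, rose to 2229 ± 31 CPM (0.28 ± 0.07 log2 units). The kinase gene Pak2 fell by 0.14 ± 0.04. None of the 21 was called in edgeR without SHP099 replicate 3, and 4 rose and none fell with pairing without the third pair. The paired counts of this list are near the shares over all genes. In mutant cells 5 of the 21 fell and 2 rose, where 14.7% of all genes fell and 16.9% rose. Prkca, a protein kinase C gene, fell by 0.95 ± 0.12 and the kinase gene Syk by 0.28 ± 0.05, as did Tiam1, an exchange factor for RAC (-0.30 ± 0.05), and Vav2, another exchange factor, rose by 0.45 ± 0.09.

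Of 11 tested transcription factor genes of phagocytes, 0 were called with SHP099 in the fit of all libraries (edgeR), 4 had an unadjusted p under 0.05, DESeq2 called 2, and 8 rose with pairing (6 without the third pair). Spi1, the gene of PU.1, was at 329.9, 309 and 350.5 CPM in WT, mutant vehicle and treated cells, with a paired change of 0.18 ± 0.04 (edgeR adjusted p = 0.000621). In mutant cells Irf8 and Irf1 rose and Cebpe and Cebpd fell. Irf8, a monocyte factor gene, went from 17.5 ± 1.47 CPM in WT to 40.4 ± 8.88 CPM, and Cebpe, a factor of late granulocyte maturation, from 173 ± 14.8 to 129 ± 11.9 CPM.

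Of 23 antioxidant enzyme genes, 6 rose with SHP099 and none fell, and 14 rose and 1 fell with pairing. Without SHP099 replicate 3 the count was 4 higher, Gpx4 not among them, and with pairing but without the third pair 10 higher and 0 lower. Prdx5, a peroxiredoxin gene, went from 398 ± 14.9 to 562 ± 22.3 CPM (0.50 ± 0.06 log2 units) and Txn1, the thioredoxin gene, from 351 ± 14.7 to 435 ± 6.8 CPM. The glutathione peroxidase genes Gpx3 and Gpx4 rose by 0.58 ± 0.14 and 0.29 ± 0.07. In mutant cells 4 of the 23 fell and 1 rose, with Srxn1, the sulfiredoxin gene, at -0.71 ± 0.12, Hmox1, the heme oxygenase gene, at -0.50 ± 0.13, Prdx5 at -0.31 ± 0.06 and Prdx3 higher at 0.18 ± 0.05. Of 12 genes of NADPH supply, 4 rose with SHP099 and 1 fell, with the same counts in the paired fit, where 21.5% of all genes rose and 21.3% fell. Counts this small were not tested against these shares. Without SHP099 replicate 3, 2 rose, Taldo1 and Pgls, and 1 fell. The pentose phosphate genes Taldo1, Pgls and Pgd rose by 0.29 ± 0.05, 0.29 ± 0.05 and 0.21 ± 0.06, and the folate enzyme gene Mthfd1 fell by 0.27 ± 0.06. In mutant cells Taldo1 fell by 0.33 ± 0.05 and Idh2 rose by 0.33 ± 0.05, and the other 10 were not called.

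Mature neutrophil markers moved in the same direction as the oxidase genes in both comparisons, and monocyte markers did so with SHP099. This direction was not particular to phagocyte markers. Megakaryocyte genes and mast cell and basophil genes, given below, also moved so in both comparisons. The summed level of 14 mature neutrophil markers was 26747 to 35420 CPM in WT, 19489 to 20337 CPM in mutant vehicle and 27931 to 32800 CPM in SHP099-treated libraries. In mutant cells 9 of these 14 fell and 1 rose, and with SHP099 4 rose and none fell (13 with pairing, and 6 without SHP099 replicate 3). The sum of 12 monocyte and macrophage markers was 3196 to 4075 CPM in WT and 2455 to 3355 CPM in mutant vehicle libraries. In treated libraries it was 4294 to 4909 CPM. Of these 12 markers, 3 were higher and 2 lower in mutant cells, and 4 were higher with SHP099 (10 with pairing, and 3 without SHP099 replicate 3). Their median log2 fold change was 0.21 in mutant cells and 0.35 with SHP099. For genotype the sum and the median thus went in different directions, and the sum gives most weight to the most abundant genes. Genes of primary granules, made at an earlier stage, had overlapping sums of 12503 to 16034, 14019 to 20571 and 14840 to 21092 CPM, and none of the 5 was called in either comparison without pairing (edgeR; 1 in each at an unadjusted p under 0.05, and 1 with SHP099 in DESeq2). With pairing 3 of the 5 rose with SHP099 (2 without the third pair). The part of these cells in the oxidase result was not tested. In bulk libraries a larger share of oxidase-expressing cells and more transcript per cell cannot be told apart.

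**Figure D5:**
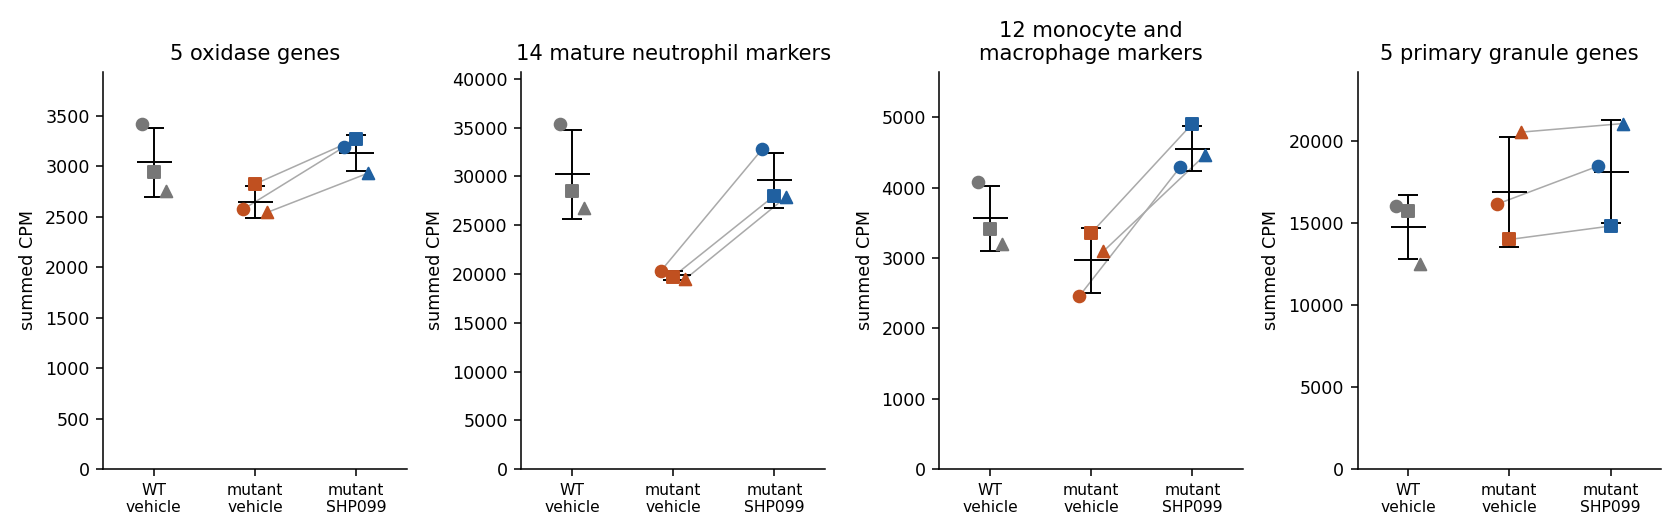
Summed CPM per library of the 5 oxidase genes, 14 mature neutrophil markers, 12 monocyte and macrophage markers and 5 primary granule genes, with symbols, lines and bars as in the plot of oxidase transcripts by library. The neutrophil sum of mutant vehicle cells, 19489 to 20337, lies below both other groups, and the primary granule sums of all groups overlap.

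Several other lineages could be present in such cultures and were read in the same way. The 9 eosinophil genes summed to 559 to 632 CPM in WT, 232 to 295 CPM in mutant vehicle and 206 to 246 CPM in treated libraries, and 3 of the 8 tested fell and 1 rose in mutant cells. With SHP099 1 eosinophil gene fell, and with pairing 1 rose and 2 fell (1 and 1 without the third pair). All 10 megakaryocyte genes fell in mutant cells, to sums of 1749.5 to 2421 CPM from 3901 to 4929 CPM in WT, and the treated libraries held 2132 to 2857 CPM. With SHP099 2 megakaryocyte genes rose, and with pairing 9 of the 10 (7 without the third pair). The sums of 12 mast cell and basophil genes were 2628 to 2980 CPM in WT, 1419 to 2014 CPM in mutant vehicle and 1977 to 2588 CPM in treated libraries, with 9 lower in mutant cells, 4 higher with SHP099 and 9 higher with pairing. Of 8 tested erythroid genes 7 fell and 1 rose in mutant cells. With SHP099 1 erythroid gene fell (0 without SHP099 replicate 3), and with pairing 4 rose and 2 fell (2 and 1 without the third pair). Of the 10 listed, 2 had 0 counts in all libraries. None of 4 tested dendritic cell genes was called in either comparison in edgeR without pairing, 1 was between mutant and WT at an unadjusted p under 0.05 and in DESeq2, and 1 fell with SHP099 with pairing (0 without the third pair). Of 3 tested lymphoid genes, Nkg7 rose with SHP099 from 109 to 168 CPM, and 0 were called in mutant cells by edgeR, at an unadjusted p under 0.05 or by DESeq2. Of 7 stem and progenitor genes 2 rose and 1 fell in mutant cells, and Cd34 rose with SHP099, a call lost without SHP099 replicate 3 (4 of the 7 rose with pairing). The part of these lineages in the oxidase levels was not tested either.

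Within the set, Cyba and Rac2 were most alike over the 9 libraries (Pearson's r of log2 CPM 0.902), and Ncf1 and Ncf4 least (0.0414). The libraries share groups and cultures, so these values describe the pattern only. Among 9625 genes, with provisional names (Gm and Rik) left out, those most like Cybb were Arhgap9 (r = 0.956), Slc6a13 and Myo1f, and those most like Cyba were Coro1b (0.983), Rab5c and Cd52. Those most like Ncf1 were Jdp2 (0.977), Sh2d3c and Slc35a5, and those most like Rac2 were Ctdsp1 (0.984) and Txndc16. Ncf4 had the least close matches, Dlg3 (0.909), Prdx4 and Gpr132.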

How the data were processed

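Per the labels' protocols, the 9 cultures were sequenced as stranded TruSeq mRNA libraries. The submitters' processing notes list FastQC, STAR, featureCounts, Subread and mm10 without versions, and which annotation and strand option served for counting is not given in the sources used here. The authors deposited raw counts per gene symbol, 1 whole number per library. One column name differs in its last character from its sample title and was taken as SHP099 replicate 3, the sole mutant sample with that number and treatment.

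The counts went into edgeR 4.0.16 (R 4.3.3). A filter (filterByExpr, minimum count 10) passed 13270 genes and dropped 11151. After TMM scaling, all 9 libraries shared a quasi-likelihood fit with group means as its terms. Tests were two-sided, and p-values were adjusted by Benjamini-Hochberg over all genes of each comparison and called under 0.05. Log2 fold changes carry standard errors, and CPM levels carry SDs (n = 3). The labels do not name separate WT animals, so p-values there cover only the spread of these samples. Chi-square per degree of freedom between replicates was 10.5 to 24.4 without SHP099 replicate 3, and up to 109.9 with it.

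Pairing of the mutant libraries rests on the labels, which give individual mice, and on the titles' numbers. Their deviations from group means correlated across genes at 0.543, 0.596 and 0.561 for equal numbers and at -0.359 to -0.227 for unequal ones. Deviations from the mean of a group sum to 0, so the negative values follow from the positive ones and are no separate evidence. For WT and mutant vehicle libraries with equal numbers the correlations were -0.135 to -0.0721, and those libraries were not paired.

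GENCODE M21 on GRCm38 (mm10) supplied coordinates, lengths and GC content for 23376 of 24421 symbols. Alternatives were RLE scaling, DESeq2 1.42.0, other filters, each library left out, the replicate block, only the compared groups, and removal of a lowess trend (span 0.3) on length and GC content. Fits of the 6 mutant libraries with the block, and list counts without SHP099 replicate 3, were chosen after seeing the data. The 5 members and the 7 pathway and 10 marker lists were chosen with earlier results of these data known. The rule for named genes took the members, the oxidase partners, at most 4 called genes of smallest p per pathway list for SHP099 and for genotype, and the 3 genes most correlated with each member (Pearson, log2 CPM with prior count 2, mean of at least 5 CPM). Nkg7, Cd34 and the genes next to Ncf4 were named after their values were seen. The table held 196 of 198 list genes, and Cybc1 is not analysed here. A few other genes that the rule names are not reported here.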

Additional observations from a re-analysis of the deposited data

How the results depend on the processing

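The signs of the Cyba, Rac2 and Ncf1 changes held for genotype and for SHP099 under all alternatives run for those comparisons, as did the sign of Cybb with SHP099, but the calls did not all hold. For SHP099, the count of oxidase genes called went from 2 to 1 with the length and GC trend removed (Cyba kept) and to 1 with the replicate block over all 9 libraries as well (Cybb called, Cyba lost), and ran from 1 to 3 with a library left out. Over all genes that count was 2890 and ran from 1767 (without SHP099 replicate 3) to 2976. The replicate block in the mutant libraries alone gave 5563 genes and all 5 oxidase genes. With pair 1, 2 or 3 left out it gave 5085, 4892 and 3850 genes, and 5, 5 and 4 oxidase genes, and with the trend removed 5271 genes and 4 oxidase genes. The block over all libraries pairs WT with mutant cultures by number alone and called 2879 genes and 3 oxidase genes.

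For genotype, 0 oxidase genes were called in edgeR with the trend removed, 1 with the block as well, and 0 to 3 with a library left out. Over all genes the genotype count was 4199 in the main fit, 4014 with the trend removed and 4095 with the block as well. With a library left out it ran from 2879 to 3886. The treated against WT count of oxidase genes was 0 to 1. Over all genes that count was 4209 in the main fit and ran from 2826 to 4403. The high replicate 2 of Ncf4 decides its unpaired value for SHP099, which ran from -0.14 without that SHP099 library to 0.47 without that vehicle library. For genotype, Cybb ran from -0.28 without WT replicate 3 to 0.0891 without WT replicate 1. Small differences between treated and WT cells changed sign with a library left out, over -0.17 to 0.0165 for Ncf1, -0.32 to 0.13 for Ncf4 and -0.0358 to 0.0777 for Rac2, and Ncf4 stood at 0.0051 without the low-count filter. The cause was not tested. Where a 95% interval holds 0, as for Ncf4 without pairing, no difference was detectable with 3 libraries a group.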
